A study of Mus musculus with 2 samples.

Results

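The positional transcription factor genes followed here, 10 of the 25814 gene symbols with counts, were compared across cell classes of the lung and brain: the T-box genes Tbx2, Tbx3, Tbx4 and Tbx5 and the Hox genes Hoxa3, Hoxa4, Hoxa5, Hoxb3, Hoxb4 and Hoxb5. They were listed by name, with earlier results of these data known. Nes-GFP+ cells, which carry green fluorescent protein under Nestin regulatory elements, had been isolated by flow cytometry out of brain and lung tissue, dissociated with trypsin, of mice aged about 6 weeks and captured as single cells with a droplet system that counts the 3′ ends of transcripts. The study asked whether the lung holds cells resembling neural stem cells of the brain. The labels give the strain as C57BL/6, whereas the methods describe transgenic lines bred with CD1 mice or mixtures of CD1 and C3H. Both groups carried the reporter, no treatment was given, and the number of animals in each library was not stated. Only cells sorted as positive for the reporter could enter either library. Each tissue gave 1 library, so no test between tissues or classes was possible. All intervals below are exact 95% intervals that cover counting error only.

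T-box proteins bind DNA through a shared domain and act in the growth and patterning of limbs, heart and lung. Tbx2, Tbx3, Tbx4 and Tbx5 stem from an ancestral pair, and Tbx4 and Tbx5 are known for roles in the mesenchyme of the budding lung. Hox genes encode homeodomain proteins, lie in clusters on the chromosome, and are active in an order along the body axis that follows their order in the cluster; the low-numbered paralogue groups act towards the front of the body, and Hoxa5 and Hoxb5 are known from lung development.

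The 4 T-box genes form linked pairs. In GENCODE M21 on GRCm38, the genome of the mm10 build that the authors used, Tbx2 lies on chromosome 11 at 85832551-85841948 and Tbx4 at 85886422-85916097, both on the plus strand and 44.5 kb apart. Tbx3 lies on chromosome 5 at 119670669-119684724 and Tbx5 at 119832668-119885219, also on the plus strand, with 147.9 kb between them. The Hoxb members lie on the plus strand of chromosome 11, Hoxb5 at 96303336-96306121, Hoxb4 at 96318267-96321638 and Hoxb3 at 96323326-96347930. The Hoxa members lie on the minus strand of chromosome 6, Hoxa3 at 52169062-52213336, Hoxa4 at 52189671-52191753 and Hoxa5 at 52201754-52204587, so the Hoxa3 model spans the other two. Of the exonic bases of Hoxb3, 52.9% lie opposite exons of the antisense gene Hoxb3os, and 25.4% of those of Hoxa3 and 255 of the 1594 of Hoxa4 lie opposite other genes. The strand setting of the counting was not stated, so reads of Hoxb3, Hoxa3 and Hoxa4 cannot be told apart from those of their antisense partners with certainty. On the same strand, 8.01% of the exonic bases of Hoxa3 are shared with Gm28308, which no strand setting would tell apart. For Tbx2, Tbx4, Tbx5, Hoxa5 and Hoxb4 no exonic base was shared with another gene.

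Promoter sequences from RefSeq (GRCm38.p6) were at hand for Tbx4, Hoxa3, Hoxa5 and Hoxb4. The 250 bases before the start are printed for Tbx4, Hoxa5 and Hoxb4, since in the results below Tbx4 was high in 3 mesenchymal classes, Hoxa5 was highest in endothelial-like cells and Hoxb4 was spread over both. They come from chr11:85896515-85896764 (plus strand, inside the longer GENCODE model of Tbx4), chr6:52204588-52204837 (minus strand) and chr11:96318017-96318266 (plus strand), and capitals mark the motif matches named after them.
Tbx4: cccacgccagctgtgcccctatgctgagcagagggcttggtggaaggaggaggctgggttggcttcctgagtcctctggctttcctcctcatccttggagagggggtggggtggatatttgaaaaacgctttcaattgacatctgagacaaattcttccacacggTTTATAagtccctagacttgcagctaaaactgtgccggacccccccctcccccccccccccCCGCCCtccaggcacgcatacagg
Hoxa5: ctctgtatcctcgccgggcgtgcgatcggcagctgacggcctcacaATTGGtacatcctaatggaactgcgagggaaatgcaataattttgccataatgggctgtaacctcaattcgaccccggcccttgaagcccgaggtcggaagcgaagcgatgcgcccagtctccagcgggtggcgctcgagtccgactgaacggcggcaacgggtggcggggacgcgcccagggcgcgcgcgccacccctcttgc
Hoxb4: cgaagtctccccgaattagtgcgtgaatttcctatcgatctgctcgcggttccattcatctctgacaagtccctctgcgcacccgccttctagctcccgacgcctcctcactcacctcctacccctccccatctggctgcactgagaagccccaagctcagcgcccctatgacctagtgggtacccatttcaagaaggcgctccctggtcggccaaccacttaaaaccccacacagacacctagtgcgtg
Both strands were searched for 5 motifs. The Tbx4 window held 1 TATA box (TATAAA, here read from the other strand) and 1 GC box (GGGCGG, also from the other strand), which 12.3% and 33.0% of all 32536 promoter windows of this length held. The Hoxa5 window held 1 CCAAT box, as did 33.8% of all windows. The Hoxa3 window overlaps annotated transcripts of Hoxa3 and Gm28308 and is not printed. None of the 4 windows held the T-box core GGTGTGA or the joint Hox and Pbx core TGATNNAT, against 3.33% and 7.66% of all windows; this says only that these letters are not in these windows. The windows had 6 CpG dinucleotides at Tbx4, 14 at Hoxb4 and 28 at Hoxa5, where the median window had 6.

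The filtered libraries held 4151 brain cells with 19518081 counts of unique molecular identifiers (UMIs) and 5608 lung cells with 31797069 UMIs, and the median cell had 4209 and 5585 UMIs. Of the barcodes, 15 occurred in both libraries, and 12 of these passed the filter. Clusters were named after marker genes, and the clustering used none of the T-box or Hox genes. In the lung, 5 classes were mesenchymal: pericyte-like (1999 cells), myofibroblast-like (1008), adventitial fibroblast-like (668), smooth muscle-like (95) and alveolar fibroblast-like (28). The others were endothelial-like (614 cells), T cell-like (121), epithelial-like (35) and neural-like (34), while 1006 cells in 6 clusters stayed unnamed. The markers behind the names differed in how well they set the classes apart. The 10 pericyte markers summed to 17068 CPM (the UMIs of a gene or list scaled to a common total of UMIs per class) in pericyte-like cells and 483 in endothelial-like cells, and the 11 endothelial markers to 13482 CPM in endothelial-like and 552 in pericyte-like cells. The myofibroblast-like class was less distinct, with 7306 CPM of its own markers and 7723 of smooth muscle markers, while smooth muscle-like cells had 679 and 35146; it held between 251 and 1013 cells over the settings tried, and the smooth muscle-like class between 75 and 295. In the brain, the OPC-like class had 9525 CPM of mature oligodendrocyte markers and 8099 of its own. Brain mural-like cells had 41486 CPM of their own and 8984 of astroglial markers, and numbered 81 in place of 169 when cells holding markers of another class were left out. Brain fibroblast-like cells had 18206 CPM of their own, 8083 of astroglial and 6508 of mural markers. The epithelial-like cluster was led by Ccl21a, the basal keratin genes Krt5, Krt14 and Krt17, and genes of major histocompatibility complex class II, with Sftpc, Nkx2-1 and Krt19 at 0. Whether the T cell-like and epithelial-like clusters came from lung tissue proper cannot be settled from the labels.

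**Figure D1:**
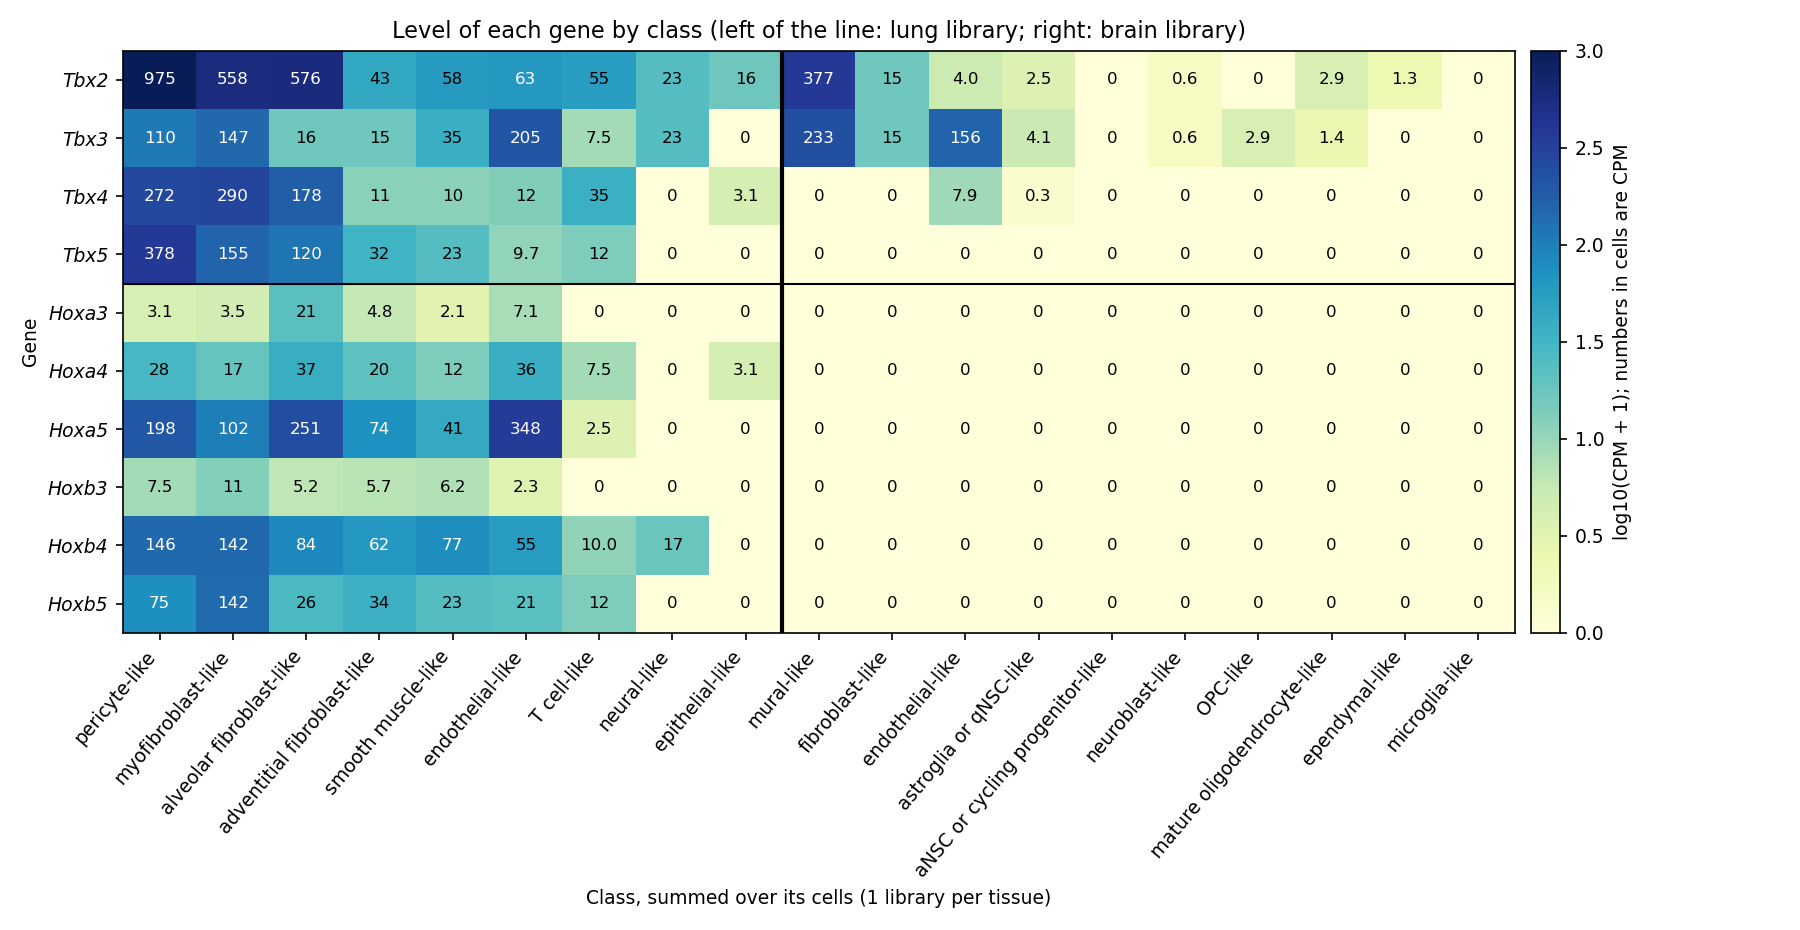
Heat map of the level of the 10 genes (rows) in 9 named lung classes and 10 named brain classes (columns), coloured by log10(CPM + 1) with the CPM printed in each cell. The 6 Hox genes and Tbx5 are at 0 in each brain class shown, while Tbx2 and Tbx3 reach 377 and 233 CPM in brain mural-like cells.

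All 10 genes were detected in the lung, and their levels split the lung mesenchyme. Tbx2, Tbx4 and Tbx5 were high in pericyte-like, myofibroblast-like and alveolar fibroblast-like cells and low in adventitial fibroblast-like and smooth muscle-like cells. Tbx3 and Hoxa5 instead were higher in endothelial-like cells than in the pooled mesenchyme. In the library as a whole, each of the 10 genes was at least 4-fold higher in lung than in brain by CPM. This call was met by 8.78% of the 19211 genes tested in that direction and 17.7% in the other. For most members it is a bound set by a count of 0 in brain. The libraries differ in make-up, with 44.0% neuroblast-like cells in brain and 35.6% pericyte-like cells in lung, and this enters every call between whole libraries.

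Tbx2, a repressor that keeps lung mesenchyme proliferating in development, stood at 975 CPM (956 to 994) in pericyte-like cells, 576 (474 to 694) in alveolar fibroblast-like cells and 558 (541 to 576) in myofibroblast-like cells. The intervals of the last 2 classes overlapped. It stood at 62.6 CPM (54.6 to 71.5) in endothelial-like, 58.0 (38.5 to 83.8) in smooth muscle-like, 55.0 (34.4 to 83.2) in T cell-like and 42.8 (37.5 to 48.6) in adventitial fibroblast-like cells. These lower classes could not be put in order: endothelial-like cells lay above adventitial fibroblast-like cells by their intervals, but stood at 40.1 CPM without Scrublet doublets.

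Tbx4, a factor of the lung and hindlimb mesenchyme, followed the same division. Its level was 290 CPM (278 to 303) in myofibroblast-like, 272 (262 to 282) in pericyte-like and 178 (123 to 249) in alveolar fibroblast-like cells. Unnamed cluster 9 stood higher, at 382 CPM. The remaining classes lay far lower, at 35.0 CPM (19.1 to 58.7) in T cell-like, 12.3 (8.90 to 16.6) in endothelial-like, 10.8 (8.24 to 13.97) in adventitial fibroblast-like and 10.4 (3.36 to 24.2) in smooth muscle-like cells.

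Tbx5, known for its part in lung bud, heart and forelimb, was graded within the mesenchyme. Pericyte-like cells had 378 CPM (366 to 390), myofibroblast-like cells 155 (146 to 165) and alveolar fibroblast-like cells 120 (76.4 to 181), with overlapping intervals for the last 2. Adventitial fibroblast-like cells had 31.8 CPM (27.2 to 36.9), smooth muscle-like cells 22.8 (11.4 to 40.8), T cell-like cells 12.5 (4.06 to 29.2) and endothelial-like cells 9.72 (6.73 to 13.6). The last 3 intervals overlapped, so Tbx5 was low where Tbx3 was highest, but not shown to be lower there than in T cell-like cells.

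Tbx3, the paralogue closest to Tbx2, had its highest class level in endothelial-like cells at 205 CPM (190 to 220). Myofibroblast-like cells followed with 147 (138 to 156), pericyte-like cells with 110 (104 to 117) and smooth muscle-like cells with 35.2 (20.5 to 56.4). The level was 15.7 CPM (3.24 to 45.9) in alveolar fibroblast-like cells, which rests on 3 UMIs, 15.4 (12.3 to 19.1) in adventitial fibroblast-like cells and 7.496 (1.55 to 21.9) in T cell-like cells. The lead of the endothelial-like class came from cluster 10 at 364 CPM, as clusters 3 and 17 were at 148 and 116, within or near the range of the myofibroblast-like and pericyte-like classes. For the classes as pooled, each of the upper 3 was separate from the class after it, and among the 4 lower classes the intervals overlapped except between smooth muscle-like and adventitial fibroblast-like cells.

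Among the Hoxa genes, Hoxa5, known for its role in airway and lung formation, had the widest range of levels. It stood at 348 CPM (329 to 369) in endothelial-like, 251 (185 to 333) in alveolar fibroblast-like, 198 (189 to 207) in pericyte-like and 102 (94.9 to 110) in myofibroblast-like cells. Adventitial fibroblast-like cells had 73.6 CPM (66.6 to 81.2), smooth muscle-like cells 41.4 (25.3 to 64.0) and T cell-like cells 2.50 (0.0633 to 13.9), the last from 1 UMI. Endothelial-like and alveolar fibroblast-like cells overlapped, as did alveolar fibroblast-like and pericyte-like cells. Over the mesenchymal and endothelial-like classes Hoxa4, its neighbour in the cluster, ranged from 12.4 CPM in smooth muscle-like to 36.7 in alveolar fibroblast-like cells, with 36.0 (30.0 to 42.9) in endothelial-like and 28.1 (25.0 to 31.5) in pericyte-like cells. Hoxa3 was sparse, with 126 UMIs in the filtered lung library, and its class levels ran from 2.07 to 20.95 CPM over the same classes.

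The Hoxb genes leaned to the mesenchyme. Hoxb4 was at 146 CPM (139 to 153) in pericyte-like and 142 (134 to 152) in myofibroblast-like cells, and the ratio of the 2 classes, 1.02 (0.944 to 1.11), did not exclude 1. It was at 83.8 CPM (47.9 to 136) in alveolar fibroblast-like, 76.6 (54.0 to 106) in smooth muscle-like, 62.0 (55.6 to 69.0) in adventitial fibroblast-like and 55.2 (47.7 to 63.5) in endothelial-like cells, and these 4 overlapped. Among the named classes, Hoxb5 was highest in myofibroblast-like cells at 142 CPM (133 to 151), followed by 74.5 (69.4 to 79.9) in pericyte-like cells. In the other mesenchymal classes and in endothelial-like cells it ranged from 21.4 to 33.8 CPM. Hoxb3 was sparse, with 233 UMIs, and as pooled classes reached 11.3 CPM (8.93 to 14.2) in myofibroblast-like and 7.46 (5.90 to 9.31) in pericyte-like cells. By cluster it was higher in unnamed cluster 9, at 38.8 CPM. Adventitial fibroblast-like cluster 13 had 38.1 CPM, against 4.05 in cluster 2 of that class. Unnamed cluster 14 had the most Hoxb4 and Hoxb5 of all clusters, at 180 and 192 CPM.

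The neural-like class, which comes nearest to the question of the study and was led by genes that include Foxd3 and Sox10, factors of the neural crest and its glia, held few member UMIs. In its 177602 UMIs there were 4 of Tbx2, 4 of Tbx3 and 3 of Hoxb4, which gave 22.5 CPM (6.14 to 57.7) for each of the first 2 and 16.9 (3.48 to 49.4) for Hoxb4. The other 7 genes were at 0, a count that allows up to 16.9 CPM in so small a class. The epithelial-like class held 5 UMIs of Tbx2, 1 of Tbx4 and 1 of Hoxa4 and none of the other 7 genes, with a limit of 9.33 CPM.

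T cell-like cells, named from T cell receptor and other lymphocyte genes, served as a gauge of UMIs in cells of another kind, although their origin is not settled. They had 12275 CPM of T cell markers and 5087 of macrophage markers, with Ptprc on both lists. Of these cells 81.8% held none of the 10 genes, while 1 or more cells held 6; the part of free RNA and of doublets in these UMIs was not tested. Pericyte-like cells exceeded them for Tbx2 by 17.7-fold (11.7 to 28.3), for Tbx4 by 7.77-fold (4.62 to 14.2), for Tbx5 by 30.2-fold (12.9 to 93.1) and for Hoxb4 by 14.6-fold (5.69 to 53.6). In all, 7 of the 10 genes were called at least 4-fold higher there than in T cell-like cells, against 8.9% of all genes tested in that direction and 14.5% in the other. Endothelial-like cells exceeded T cell-like cells for Tbx3 by 27.3-fold (9.31 to 133) and for Hoxa4 by 4.81-fold (1.61 to 23.6), and the ratio for Hoxa5 was 139 (25.0 to 5514) against a single UMI. There, 4 of the 9 genes with 10 UMIs or more over both classes were called, against 9.32% of all genes in that direction and 8.45% in the other. For Tbx2 the ratio of endothelial-like to T cell-like cells was 1.14 (0.733 to 1.86), for Tbx5 0.778 (0.303 to 2.55) and for Tbx4 0.351 (0.189 to 0.696). For Hoxb5 it was 1.72 (0.704 to 5.44). By CPM, no level of Tbx2, Tbx4, Tbx5 or Hoxb5 above this gauge was thus detectable in lung endothelial-like cells. This reading rests on the scaling to class totals: at median depths of 5395 and 1985 UMIs, Hoxb5 had a UMI in 10.4% of endothelial-like and 3.31% of T cell-like cells and Tbx2 in 15.96% and 9.92%, whereas after thinning to 1000 UMIs the shares were 2.30% (1.26 to 3.83) and 0.833% (0.0211 to 4.56) for Hoxb5 and 4.27% (2.81 to 6.19) and 6 of 120 cells for Tbx2. The summed pericyte markers stood at 483 CPM in endothelial-like and 587 CPM in T cell-like cells, all 10 markers having UMIs in the former and 9 in the latter (Lamc3 was at 0). Without the barcodes that Scrublet called doublets, endothelial-like cells had 40.1 CPM of Tbx2, 6.04 of Tbx4 and 3.02 of Tbx5, while Tbx3 was at 206 and Hoxa5 at 356.

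**Figure D2:**
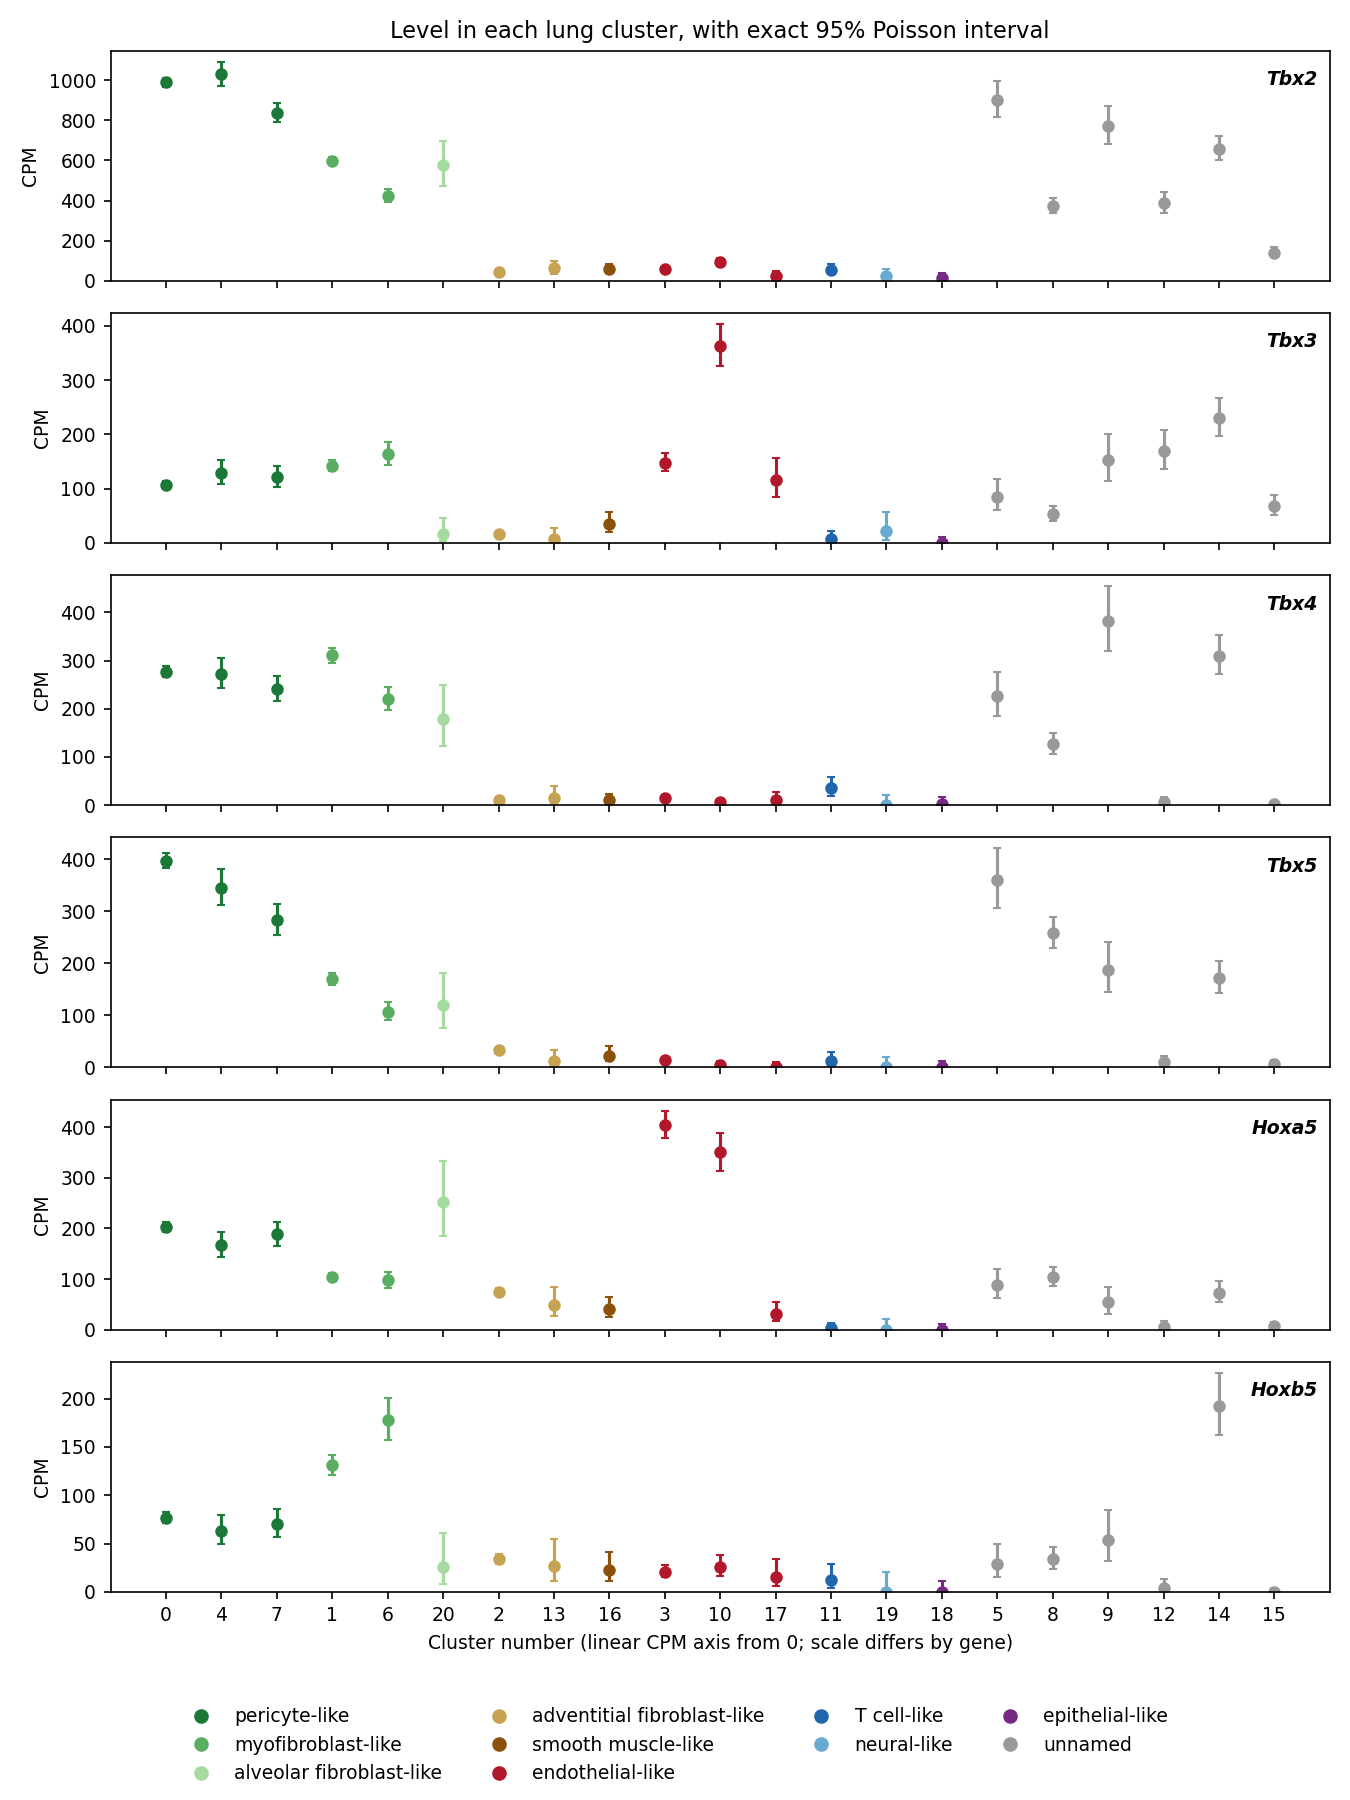
Level in CPM (linear axes from 0, scaled per gene) of 6 of the genes in each of the 21 lung clusters, with exact 95% Poisson intervals and colours for the classes. Tbx4 and Tbx5 are low in clusters 12 and 15 although Tbx2 reaches 387 and 141 CPM there, and Hoxa5 is at 31.1 CPM in endothelial cluster 17 against 405 and 350 in clusters 3 and 10.

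Whether the genes mark mesenchymal against vascular lining cells was put to the 5 pooled mesenchymal classes and the endothelial-like class. Tbx2, Tbx4 and Tbx5 were higher in the mesenchyme by 9.81-fold (8.59 to 11.3), 17.1-fold (12.7 to 23.7) and 22.9-fold (16.4 to 33.2). Without Scrublet doublets the endothelial-like levels behind the last 2 ratios were 6.04 and 3.02 CPM in place of 12.3 and 9.72, so the size of these ratios rests on few UMIs at the level of the T cell-like background. These 3 of 10 genes met the call of a 4-fold difference, which 9.86% of 15469 genes met in that direction and 6.91% in the other. Tbx3 ran the opposite way, 2.12-fold higher in endothelial-like cells (1.95 to 2.31), and so did the 3 Hoxa genes: Hoxa5 by 2.52-fold (2.36 to 2.69), Hoxa4 by 1.58-fold (1.29 to 1.92) and Hoxa3 by 1.92-fold (1.18 to 3.03). The 3 Hoxb genes were higher in the mesenchyme, Hoxb5 by 3.87-fold (3.08 to 4.95), Hoxb4 by 2.24-fold (1.93 to 2.60) and Hoxb3 by 3.55-fold (1.77 to 8.35). For the pooled classes the Hoxa and Hoxb members thus lay on opposite sides of 1. The Hoxa excess did not hold in every endothelial cluster: Hoxa4 was at 55.3 CPM in cluster 3 but 7.17 in cluster 10 and 2.59 in cluster 17, against 22.8 in the mesenchyme, Hoxa3 was at 9.83 in cluster 3 and 2.05 in cluster 10, against 3.72, and Hoxa5 was at 31.1 in cluster 17, against 138. Summed over the families, the T-box members were 3.95-fold higher in the mesenchyme (3.71 to 4.21), and the ratio of the Hox members was 0.806 (0.765 to 0.850). Of the 1646 Hox member UMIs in endothelial-like cells, 1219 were of Hoxa5. The pooled mesenchyme was mostly pericyte-like and myofibroblast-like cells; with each class given equal weight the T-box ratio was 2.77 and the Hox ratio 0.706. Pericyte-like cells alone, set against endothelial-like cells, gave a ratio of 0.539 for Tbx3 (0.491 to 0.593) and 15.6 for Tbx2 (13.6 to 17.9). For the summed Hox members the ratio was 0.971 (0.918 to 1.03), an interval that held 1. The Tbx2 ratio was 10.1 when the upper filter on genes was dropped and 24.3 without Scrublet doublets. The same 3 genes, Tbx2, Tbx4 and Tbx5, were called, against 8.69% of genes in that direction and 9.83% in the other.

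Within the mesenchyme, adventitial fibroblast-like cells stood apart from pericyte-like cells in the T-box genes more than in the Hox genes. Pericyte-like cells had 25.1-fold more Tbx4 (19.4 to 33.1), 22.8-fold more Tbx2 (20.02 to 26.1), 11.9-fold more Tbx5 (10.2 to 13.9) and 7.16-fold more Tbx3 (5.73 to 9.04). All 4 T-box genes and no Hox gene met the 4-fold call, against 8.82% of all genes tested in that direction and 9.46% in the other. The Hox genes differed less, by 2.69-fold for Hoxa5 (2.41 to 3.00), 2.35-fold for Hoxb4 (2.09 to 2.65), 2.21-fold for Hoxb5 (1.88 to 2.60) and 1.42-fold for Hoxa4 (1.13 to 1.79), while the intervals for Hoxa3 and Hoxb3 held 1. Summed, the families differed by 17.2-fold (15.8 to 18.8) for T-box and 2.29-fold (2.14 to 2.45) for Hox members. Over smooth muscle-like cells the summed ratios of pericyte-like cells were 13.7 (10.7 to 18.0) and 2.83 (2.26 to 3.58), and Tbx2, Tbx4, Tbx5 and Hoxa5 were called, against 6.54% of genes in that direction and 10.1% in the other.

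The 2 kinds of fibroblast-like cells differed likewise. Alveolar fibroblast-like cells, of which there were 28 in 1 cluster, exceeded adventitial fibroblast-like cells by 16.4-fold for Tbx4 (10.5 to 25.5), 13.5-fold for Tbx2 (10.6 to 16.97) and 3.79-fold for Tbx5 (2.34 to 5.88), whereas the ratio for Tbx3 was 1.02 (0.206 to 3.08). Hoxa5 was 3.42-fold higher (2.48 to 4.62). The ratio for Hoxa3 was 4.39 (1.11 to 12.7) from 4 UMIs. Tbx2, Tbx4 and Hoxa3 met the call, against 11.5% of genes tested in that direction and 2.09% in the other.

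Between pericyte-like and myofibroblast-like cells none of the 10 genes met the call in either direction, where 6.74% and 7.47% of genes did. With only 10 genes, this count does not show that the classes are alike. The classes differed in proportion: pericyte-like cells had 2.43-fold more Tbx5 (2.27 to 2.60), 1.93-fold more Hoxa5 (1.77 to 2.11) and 1.75-fold more Tbx2 (1.68 to 1.81). Myofibroblast-like cells had 1.90-fold more Hoxb5 (1.73 to 2.09) and 1.33-fold more Tbx3 (1.22 to 1.45). For Tbx4 the ratio of pericyte-like to myofibroblast-like cells was 0.936 (0.884 to 0.992). The cycling cluster 7 of the pericyte-like class had 838 CPM of Tbx2, against 990 and 1031 in clusters 0 and 4, and 283 CPM of Tbx5, against 398 and 346. The myofibroblast-like clusters 1 and 6 differed in Hoxb5, at 131 CPM (121 to 141) and 178 (158 to 201), and in Tbx4, at 311 (296 to 326) and 220 (197 to 245).

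Cluster 12, left unnamed for want of a clear lead of one marker list, held 111 cells led by Rgs5, Steap4, Procr and Kcnj8, genes known from mural cells. It had T-box gene levels unlike those of the pericyte-like class. Its Tbx2 was 387 CPM and its Tbx3 170, so that pericyte-like cells had 2.52-fold more Tbx2 (2.19 to 2.91) and a Tbx3 ratio of 0.650 (0.524 to 0.816). Tbx4, Tbx5 and Hoxa5 by contrast were nearly absent there, at 5.72, 9.53 and 5.72 CPM from 3, 5 and 3 UMIs. The ratios of pericyte-like cells to cluster 12 were 39.6 for Tbx5 (16.96 to 122), 47.5 for Tbx4 (16.2 to 231), 34.6 for Hoxa5 (11.8 to 168), 19.5 for Hoxb5 (5.39 to 162, against 2 UMIs) and 6.38 for Hoxb4 (3.64 to 12.4). These 5 genes met the call, against 3.24% of all genes tested in that direction and 8.05% in the other. Cluster 15, also unnamed and led by Ptn, C3 and Mmp9, likewise combined Tbx2 at 141 CPM with Tbx4 at 2.42, Tbx5 at 6.06 and Hoxa5 at 7.27 CPM. The summed T-box and Hox members of cluster 12, 572 and 53.4 CPM, compare with 610 and 0 CPM in brain mural-like cells, whose Tbx4 and Tbx5 were at 0.

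The endothelial-like class was not uniform either. Cluster 10, led by Scn7a, Clec1a and Ctla2a, had 364 CPM of Tbx3 (327 to 403), against 148 (132 to 165) in cluster 3, led by Vwf, Lyve1 and Gja5, and 116 (84.96 to 156) in cluster 17, led by Fabp4, Rbp7 and Cd300lg. Hoxa5 was at 405 CPM (379 to 433) in cluster 3, 350 (314 to 389) in cluster 10 and 31.1 (16.05 to 54.3) in cluster 17. Over cluster 17, the other two clusters together had 12.5-fold more Hoxa5 (7.12 to 24.2) and 15.5-fold more Hoxa4 (2.74 to 618, against 1 UMI). These 2 of the 9 genes tested met the call, against 2.84% of all genes in that direction and 2.53% in the other. Hoxb4 did not separate the clusters, with a ratio of 0.918 (0.592 to 1.49). Hoxa4 also divided cluster 3 from cluster 10, at 55.3 CPM (45.7 to 66.2) and 7.17 (2.88 to 14.8). Cells with a UMI of Ednrb or Apln, genes of the aerocyte capillary type, showed ratios to the other endothelial-like cells of 1.04 for Hoxa5 (0.929 to 1.17) and 0.812 for Tbx3 (0.699 to 0.944), and none of the 9 genes tested met the call, against 0.396% of genes in the first direction and 0.378% in the second. Ednrb stood at 526 CPM in lung endothelial-like cells and Apln at 12.6, so the choice rested mainly on Ednrb. As Ednrb was also a leading gene of cluster 3, these cells were not shown to be aerocytes.

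**Figure D3:**
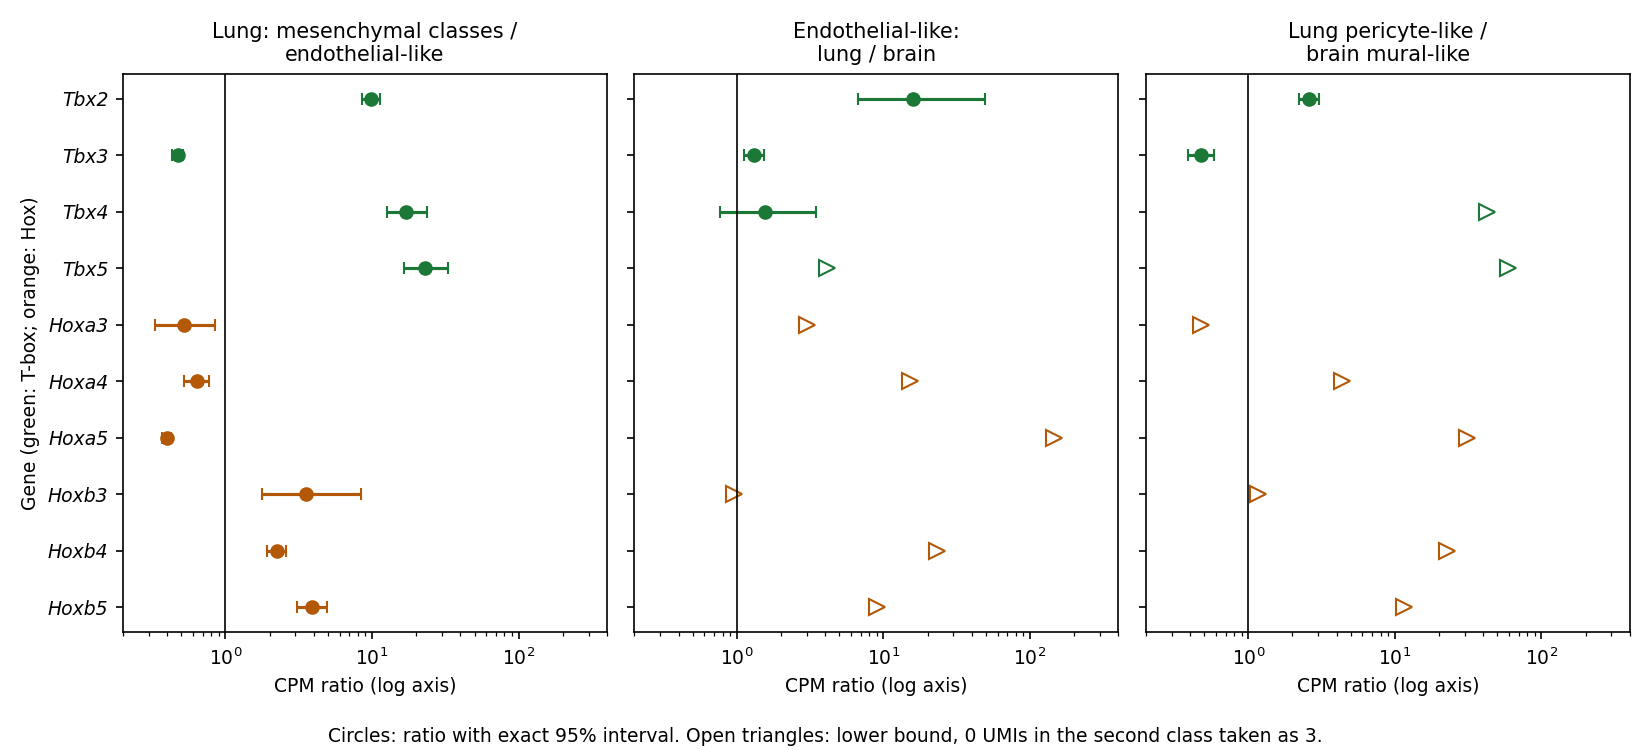
CPM ratios (log axis) of the 10 genes in 3 comparisons, with exact 95% intervals as bars; open triangles are lower bounds where the second class had 0 UMIs, taken as 3. In the lung the 3 Hoxa genes and Tbx3 lie below 1 and the 3 Hoxb genes, Tbx2, Tbx4 and Tbx5 above it, and against brain the Hoxa5 bounds are 146 and 30.8.

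Brain classes gave the contrast. None of the 6 Hox genes nor Tbx5 had a UMI in any of the 4640 brain barcodes; for each, 0 of 4151 filtered cells allows a share of cells with a UMI of up to 0.0723%, which does not bound the share of cells that express the gene. Tbx4 had 11 UMIs in the filtered brain library, 10 of them in endothelial-like cells (7.93 CPM, 3.80 to 14.6). Tbx2 and Tbx3, however, were clearly present in brain vessels: mural-like cells had 377 CPM of Tbx2 (323 to 436) and 233 of Tbx3 (191 to 281), and endothelial-like cells had 3.96 of Tbx2 (1.29 to 9.25) and 156 of Tbx3 (135 to 180). Brain fibroblast-like cells had 15.3 CPM of each (5.63 to 33.4). In neuroblast-like, astroglial, oligodendroglial, ependymal-like and progenitor-like classes both genes were measured at or below 4.07 CPM, and the small microglia-like class had 0 UMIs, which allows up to 18.1 CPM. Within the brain, mural-like cells exceeded endothelial-like cells by 94.97-fold for Tbx2 (39.9 to 296), a ratio against 5 endothelial UMIs whose level overlapped that of astroglial cells at 2.50 CPM (1.08 to 4.94); Tbx2 alone of the 3 genes tested met the call, against 8% of genes in that direction and 7.98% in the other. Tbx3 was 1.49-fold higher in mural-like cells (1.17 to 1.90), the reverse of its order in the pooled classes of the lung. Without cells holding markers of another class the Tbx2 ratio was 358.

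Between endothelial-like cells of the lung and the brain, Tbx3 differed little and the Hox genes differed widely. The lung to brain ratio was 1.31 for Tbx3 (1.12 to 1.54) and 1.55 for Tbx4 (0.767 to 3.46). Against 0 UMIs in brain, taken as the 3 counts that a 0 allows over the class, Hoxa5 was at least 146-fold higher in lung, Hoxb4 at least 23.2-fold, Hoxa4 at least 15.1-fold, Hoxb5 at least 9.01-fold and Hoxa3 at least 3.00-fold. Hoxb3, with 8 UMIs in lung, gave no useful bound. Tbx2 was 15.8-fold higher (6.66 to 49.1) and Tbx5 at least 4.09-fold higher. The lung level of Tbx5 was lower without Scrublet doublets, as given above, and its bound falls with it. The lung levels of Tbx2, Tbx5, Hoxb5 and Hoxa3 were not shown by CPM to exceed those of T cell-like cells. Of the 9 genes tested 6 met the call, against 6.35% of all genes in that direction and 5.45% in the other, and 3 of these 6, Tbx2, Tbx5 and Hoxb5, are among those not shown to exceed that gauge. Tissue and library cannot be told apart here.

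Lung pericyte-like and brain mural-like cells shared Tbx2 and Tbx3. Tbx2 was 2.59-fold higher in lung (2.23 to 3.02), and Tbx3 was 2.11-fold higher in brain (1.72 to 2.57). Neither met the call. Tbx5 was at least 58.8-fold higher in lung, Tbx4 at least 42.4-fold, Hoxa5 at least 30.8-fold, Hoxb4 at least 22.7-fold, Hoxb5 at least 11.6-fold and Hoxa4 at least 4.38-fold. These 6 of 10 genes met the call, against 4.24% of all genes in that direction and 11% in the other, and the median log2 ratio of all genes was -0.23 in this pair. The brain class had 169 cells and 467408 UMIs, so the bounds are limited by its depth. Without cells holding markers of another class it had 81 cells, and the bounds fall with it. Whether Hoxa4 would still be called there was not tested. Adventitial fibroblast-like cells of the lung and fibroblast-like cells of the brain, 668 and 66 cells, had a Tbx3 ratio of 1.01 with a wide interval (0.443 to 2.82), and Hoxa5 was at least 9.60-fold, Hoxb4 at least 8.09-fold, Hoxb5 at least 4.40-fold and Tbx5 at least 4.14-fold higher in lung. These 4 met the call, against 4.13% of genes in that direction and 7.6% in the other.

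**Figure D4:**
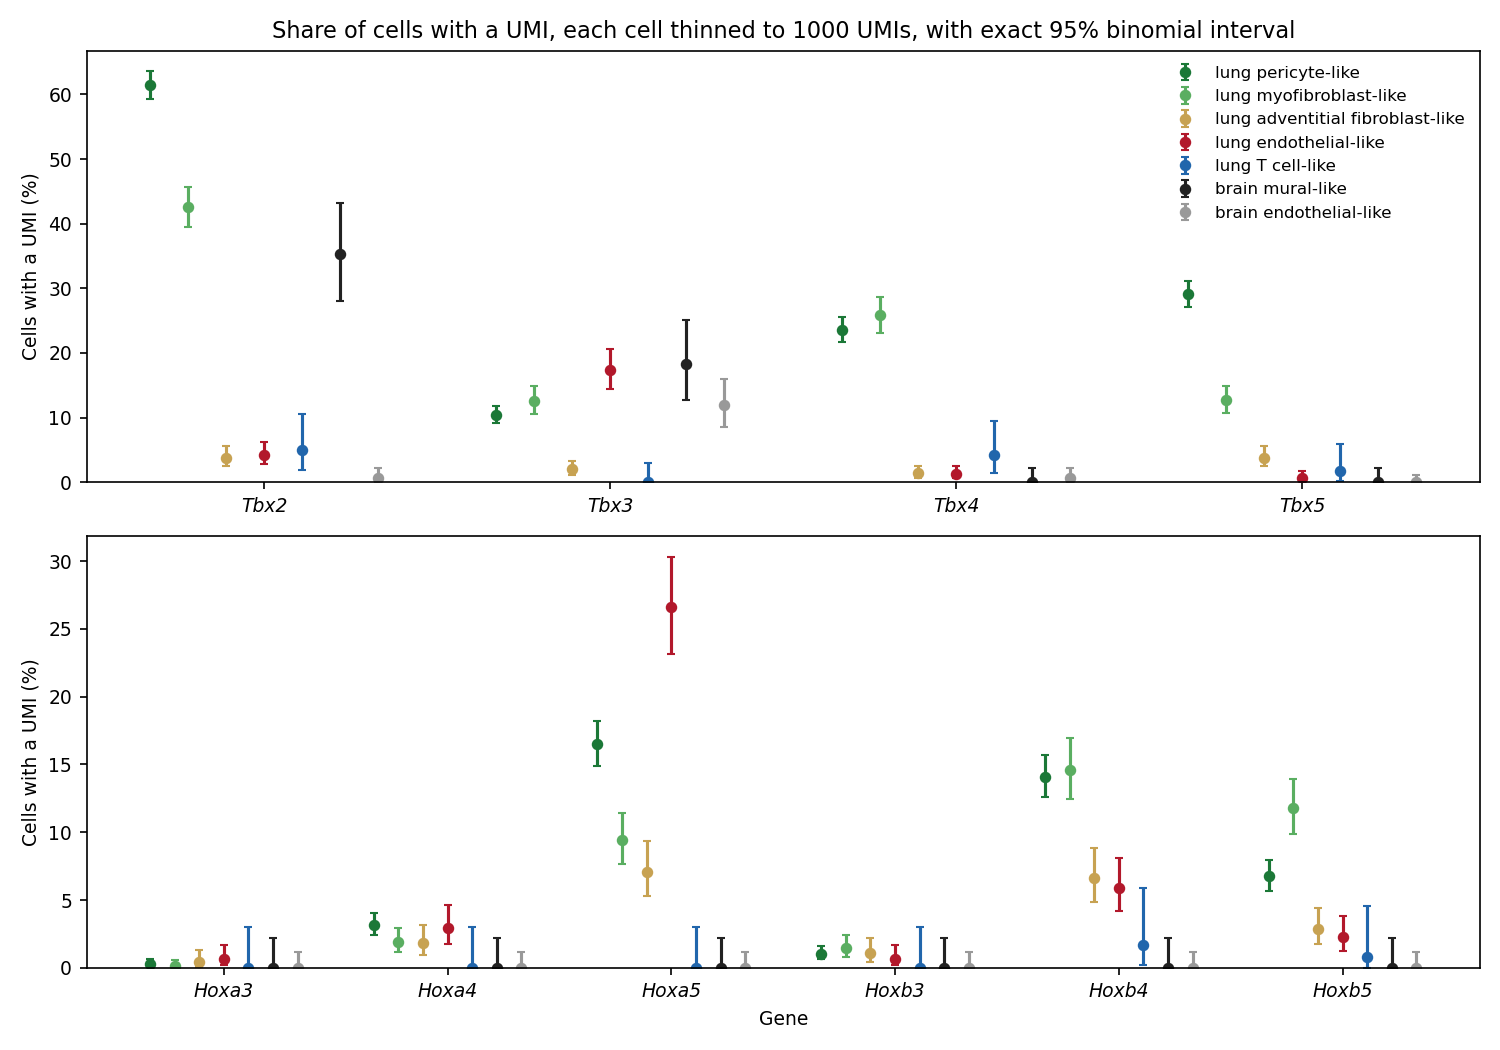
Share of cells with at least 1 UMI of each gene after each cell was thinned to 1000 UMIs, with exact 95% binomial intervals, for 5 lung and 2 brain classes. Tbx2 reaches 61.4% of pericyte-like cells and Hoxa5 26.6% of endothelial-like cells, while Hoxa5 is at 0 in T cell-like cells.

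At the level of single cells, depth set how often a gene was seen, so cells were thinned to 1000 UMIs each. Tbx2 then had a UMI in 61.4% of pericyte-like cells (59.3 to 63.6; 96.6% unthinned), 42.6% of myofibroblast-like cells, 35.4% of brain mural-like cells (28.1 to 43.2) and 6 of 120 T cell-like cells (1.86% to 10.6%). Tbx5 was seen in 29.0% of pericyte-like cells (27.1 to 31.1; 78.0% unthinned) and 0.657% of endothelial-like cells, and Tbx4 in 23.6% (21.7 to 25.5; 69.8% unthinned) and 1.31%. Hoxa5 was seen in 26.6% of endothelial-like cells (23.1 to 30.3; 68.1% unthinned), 16.5% of pericyte-like cells and 0 of 120 T cell-like cells, where the unthinned share was 0.826%. The median UMI count was 5307 in pericyte-like, 5395 in endothelial-like and 1985 in T cell-like cells before thinning.

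Unthinned, the median pericyte-like or myofibroblast-like cell had UMIs of 5 of the 10 genes, against 2 in endothelial-like and adventitial fibroblast-like cells and 0 in neural-like cells. Thinned, the medians were 2 in pericyte-like and 1 in myofibroblast-like cells, and 20.7% of pericyte-like cells still had 3 or more. Within the pericyte-like class, having a UMI of 1 T-box gene went with a small difference in the share for another. Among thinned pericyte-like cells, Tbx5 had a UMI in 29.9% of the 471 cells with Tbx4 and 28.8% of the 1526 without, and Tbx4 in 24.6% of cells with Tbx2 and 21.9% of those without. The widest gap was for Tbx5, in 33.2% of the 208 cells with Tbx3 and 28.6% of the 1789 without, and the narrowest for Tbx3, in 10.8% of cells with Tbx2 and 9.87% of those without.

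Levels across the 19 named classes of both libraries were compared by Pearson's r of log2(CPM + 10), a description over classes that share a library and differ in depth. Tbx4 and Tbx5, which lie in different linked pairs, had r = 0.96, and the gene closest to Tbx5 among 9604 was Nox4, an NADPH oxidase, with r = 0.98. Linked genes were less alike, with r = 0.83 for Tbx2 and Tbx4 and 0.43 for Tbx3 and Tbx5. The closest gene to Tbx2 was Ednra, the endothelin receptor of mural cells (r = 0.95), and the second closest to Tbx3 was Eng, a marker used in naming endothelial cells (r = 0.89). Hoxa4 was closest to Hoxa5 (r = 0.98), Hoxb3 to Hoxb5 (r = 0.96) and Hoxb4 to the antisense gene Hoxb3os (r = 0.96). For Hoxa3, which was sparse, the closest gene was Ablim3 (r = 0.89), and for Hoxb5 it was Spon2 (r = 0.95). The 0 values shared by the brain classes enter each r of the Hox genes and of Tbx5, and nearly as much those of Tbx4, so also the r of Tbx4 with Tbx5 and of Tbx5 with Nox4.

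**Figure D5:**
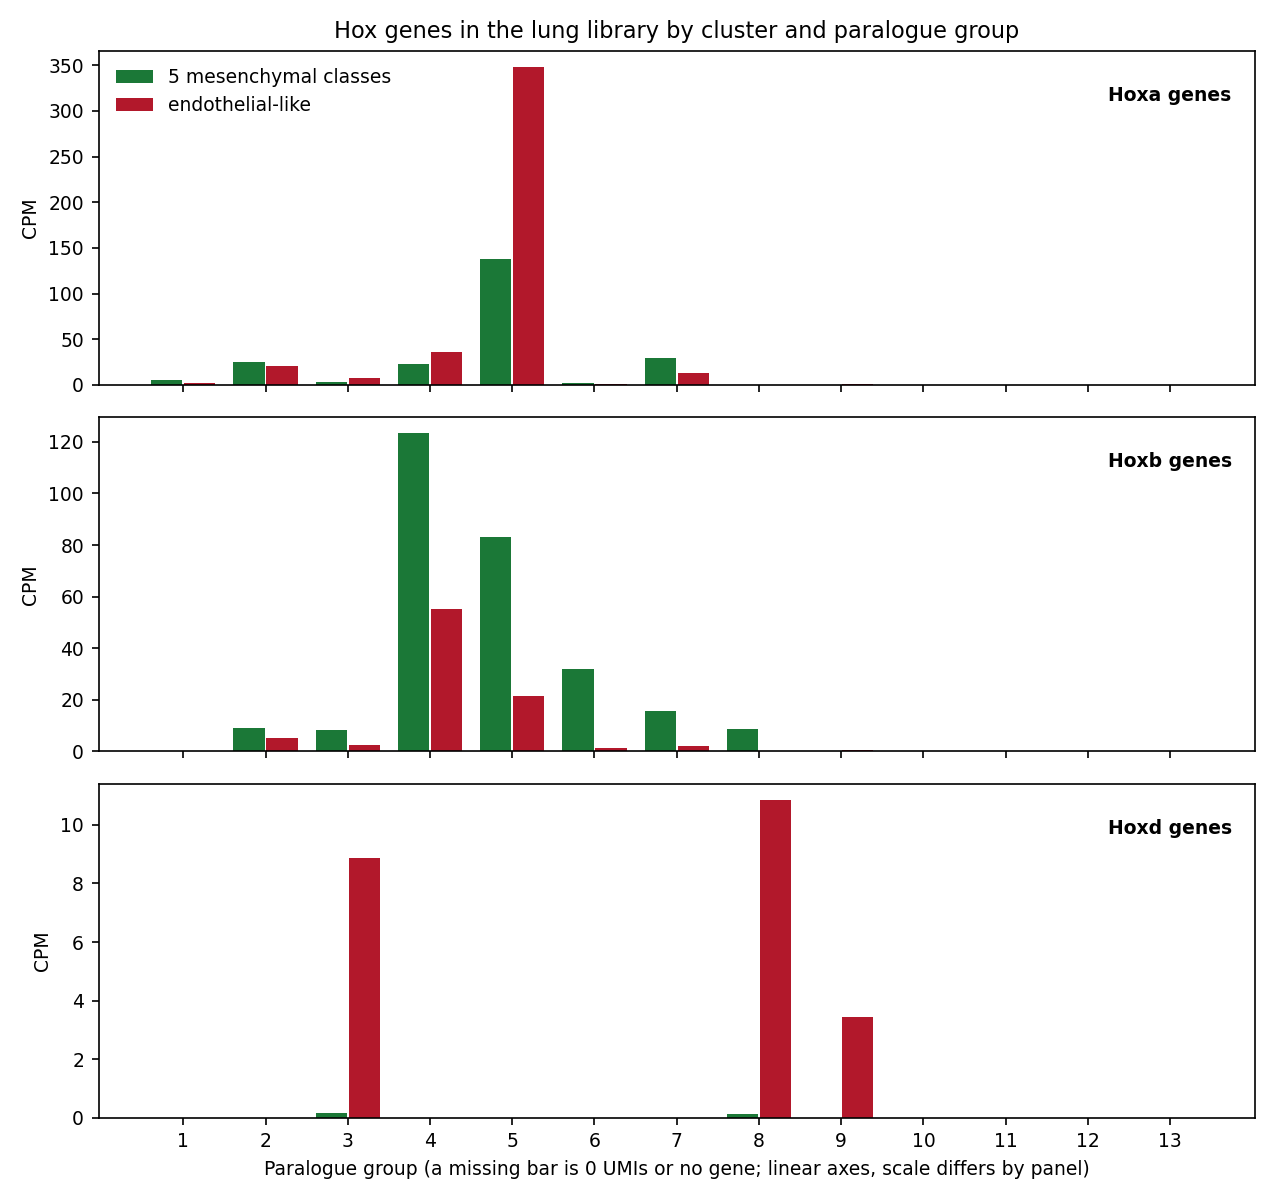
Level in CPM (linear axes from 0, scaled per panel) of the Hoxa, Hoxb and Hoxd genes by paralogue group in the 5 pooled mesenchymal classes and the endothelial-like class of the lung. Hoxa5 stands out in the Hoxa panel and Hoxb4 and Hoxb5 in the Hoxb panel, and the Hoxd genes, at most 10.9 CPM, are higher in endothelial-like cells than in the mesenchyme for Hoxd3, Hoxd8 and Hoxd9.

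The members belong to a wider Hox pattern of the lung cells. UMIs count 3′ ends, one per captured transcript, and were not scaled by gene length. Of the UMIs of all 39 Hox genes in the lung library, 84.0% fell to paralogue groups 1 to 5, 15.8% to groups 6 to 8 and 0.231% to groups 9 to 13. By cluster, 48.5% were Hoxa, 50.5% Hoxb, 0.923% Hoxd and 0.0791% Hoxc. Of the 33 other Hox genes, 20 had a lung UMI and 12 had 10 or more, and none had 10 in brain. The highest were Hoxa7 (25.8 CPM in the library), Hoxb6 (25.5) and Hoxa2 (23.8). Among the named classes, Hoxb6 followed Hoxb5 in being highest in myofibroblast-like cells, at 74.7 CPM against 15.2 in pericyte-like and 1.43 in endothelial-like cells. Hoxd3 and Hoxd8 stood at 8.86 and 10.9 CPM in endothelial-like cells and 0.171 and 0.128 in the pooled mesenchyme, and the 12 UMIs of Hoxd9 were all in endothelial-like cells. Unnamed cells also had Hoxd3 and Hoxd8, at 7.95 and 4.23 CPM. Neural-like cells had 11.3 and 5.63 CPM, where 1 UMI makes 5.63 CPM. Of 10 antisense or noncoding genes of the loci, 1 had UMIs, Hoxb3os, with 1776 in lung and 0 in brain, against 233 of Hoxb3; it was at 68.3 CPM in pericyte-like and 21.4 in endothelial-like cells.

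Of the 13 other T-box genes, 8 could be tested between the libraries, and none was called higher in lung and 5 lower, against 8.78% and 17.7% of all genes. Mga, a broadly used member, was at 75.2 CPM in lung and 102 in brain. Tbx18, a gene of mural cells in many organs, was at 373 CPM in brain fibroblast-like cells, 124 in brain mural-like cells, 29.0 in lung smooth muscle-like cells and 0.383 in lung pericyte-like cells. Tbx1 was at 79.3 CPM in brain endothelial-like cells and at 0 in those of the lung, where 0 allows up to 0.858 CPM.

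The TALE homeodomain proteins Pbx, Meis and Pknox bind DNA together with Hox proteins. All 9 of their genes were detected in both libraries, 0 were called higher in lung and 3 lower, against 8.78% and 17.7% of all genes. These calls compare whole libraries of unlike make-up. Meis1 was at 56.3 CPM in endothelial-like cells of the lung and 132 in pericyte-like cells. In the brain, Meis1 was at 4.76 CPM in endothelial-like and 4.28 in mural-like cells. Lung endothelial-like cells had 299.6 CPM of Meis2 and pericyte-like cells 13.3, the same side as the Hoxa members. Brain endothelial-like cells had 96.7 CPM of Meis2 and mural-like cells 109. In the whole libraries Meis2 was at 64.2 CPM in lung and 1097 in brain, where neuroblast-like cells had 2103.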

How the data were processed

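For each barcode and gene, counts of distinct molecules (UMIs) were deposited by the authors, who per the labels made them with bcl2fastq 2.19.1.403, UMI-tools 1.0.0, STAR 2.7.1a and featureCounts 1.6.4 on mm10; they were not normalized. The annotation version and strand setting were not given in the sources used here. As in the study's methods, the filter was over 200 and under 4000 detected genes and a mitochondrial share under 40%. The study's figures show 4640 brain and 5981 lung cells, as many as the barcodes deposited. Here 489 and 373 of these barcodes fell outside the filter. Doublets were kept, and Scrublet (scanpy 1.11.5) called 44 brain and 74 lung cells. Each library was clustered with Seurat 5.3.0 in R 4.3.3 (20 components, resolution 0.8) without the genes of any list and without cell cycle genes. A cluster was named where a marker list had a mean log2(CPM + 10) at least 1 above its average over the clusters, a lead of 0.5 over the next list, 3 markers in 20% of cells and no more markers of another list than of its own among its 10 leading genes. Shallow clusters also stayed unnamed, those with a median UMI count over 3-fold below the library median and no own marker among these genes. Lung cluster 9 (187 cells) was left unnamed in this way.

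UMIs were summed per class and scaled to a common total (CPM) with Poisson intervals. Ratios have conditional binomial intervals; a count of 0 was set to 3 UMIs. A gene was called where its CPM ratio reached 4, among genes with 10 or more UMIs over both classes. With 1 library per tissue no test was made. The interval and call code was tested on simulated data. Other genes were named by list, those with 10 or more UMIs in order of lung CPM and at most 6 per list; clusters, Hoxd genes and cells selected by Ednrb or Apln were described after their values were seen. Some genes of the lists and markers are not reported here. The members, lists and markers were chosen with earlier results of these data known. Alternatives covered the filter, doublets, resolution, class rule, depth and shared barcodes.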

Additional observations from a re-analysis of the deposited data

Results flagged for a closer look

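Tbx3 differed in direction between the tissues. In the lung, the ratio of pericyte-like to endothelial-like cells was 0.539 (95% interval 0.491 to 0.593), whereas in the brain the ratio of mural-like to endothelial-like cells was 1.49 (1.17 to 1.90). Whether these ratios differ was not tested, as each tissue had 1 library. The lung endothelial-like level rests on cluster 10, at 364 CPM. Clusters 3 and 17 were at 148 and 116, against 110 (104 to 117) in pericyte-like cells. None of the settings below left out cluster 10. Over the settings tried, the lung ratio ranged from 0.512 to 0.577 and the brain ratio from 1.44 to 1.55; with cells thinned to 1000 UMIs the brain interval, 0.909 to 2.46, included 1.

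The 373 lung barcodes outside the filter, which entered no comparison, held 1901 UMIs of the 6 Hox members, and the 489 such barcodes of the brain held 0.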

How the results depend on the processing

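None of the 6 family ratios changed direction under any alternative. The Hox ratios against brain could not be put to this check, as they are bounds over 0 brain UMIs. Of the values of all 6 ratios, 42 lay within the counting interval of the reported one and 20 outside it. For the T-box members in mesenchymal over endothelial-like cells (3.95), these were 3.17 with no upper limit of genes, 4.41 without Scrublet doublets, 4.40 with thinned cells, 4.39 without cells holding markers of another class, and 2.77 as a mean over classes. For the T-box members in endothelial-like cells of lung over brain (1.72), the same first 4 settings gave 2.04, 1.47, 2.06 and 1.35. The Hox ratio of mesenchymal over endothelial-like cells (0.806) was 0.757 with the per-cell marker gate, 0.739 without cluster 17 and 0.706 as a mean over classes. The Hox bound for endothelial-like cells (198) was 185 with the gate, 48.9 thinned, 135 without cells holding other markers and 216 without cluster 17. The Hox bound for pericyte-like over mural-like cells (71.2) was 64.1 without doublets, 62.0 with the gate, 24.8 thinned and 28.9 without cells holding other markers. A bound falls with the UMIs behind it by construction; for the other shifts the cause was not tested. The ratio of the T-box members in pericyte-like over mural-like cells stayed within its interval. Leaving out cluster 17 or 7 and averaging over classes were chosen after seeing the data.

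Of 40 class levels of single members, 14 left their interval with thinning, 9 with the gate, 8 with no upper limit of genes and 7 without doublets, by factors of up to 3.56 with thinning and 3.22 without doublets. No paired analysis was possible because each tissue gave 1 library. Intervals hold counting error only, and differences between animals, sorts or libraries were not measured. In the neural-like class a count of 0 allows a level of up to about 17 CPM.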

Other observations

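Retinoic acid regulates Hox genes in many tissues. Of the 17 genes of its pathway considered, 15 could be tested between the libraries, and 4 were called higher in lung and 2 lower, where 8.78% and 17.7% of all genes were. The receptor gene Rara was at 53.5 CPM in lung endothelial-like and 14.3 in brain endothelial-like cells. Dhrs3, a retinal reductase, was at 3.92 CPM in lung pericyte-like cells and 119 in endothelial-like cells.

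Of 12 signals and factors of the lung mesenchyme, 4 were called higher in lung and 2 lower, beside the same 8.78% and 17.7% of all genes. Foxf1, a factor of lung mesenchyme and vessels, was at 583 CPM in endothelial-like, 464 in pericyte-like and 22.2 in adventitial fibroblast-like cells of the lung. Osr1 differed, at 1.72 CPM in pericyte-like and 381 in adventitial fibroblast-like cells, and was highest in smooth muscle-like cells at 553 CPM, the class low in Tbx2, Tbx4 and Tbx5. Of 8 genes of lung capillary types, 3 were called higher in lung and 2 lower, again beside 8.78% and 17.7%, and Ednrb was at 526 CPM in lung endothelial-like and 3.17 in brain endothelial-like cells.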
